A study of Mus musculus with 9 samples.

Results

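The comparison sets 3 arrays of HDC-S tumours against 3 arrays of HDC-A tumours, 6 of the 9 arrays of the series. The arrays were chosen by their labelled group, without regard to any measured value. Tumours came from variants of B16-F10, a mouse melanoma cell line, with an altered level of L-histidine decarboxylase (HDC), which converts histidine into histamine. HDC-S tumours have an enhanced, HDC-A tumours a diminished and HDC-M tumours an unmodified capacity for histamine production, and the 3 HDC-M arrays serve here as the middle point. Each array holds a pool of RNA from 2 tumours, labelled with Cy5, beside a common Cy3-labelled reference, RNA from HDC-M cells in culture. All values are log2 ratios of tumour over this reference, normalized within each array. A value below 0 thus means less RNA than in the cultured cells, relative to the other RNAs on the array. The common reference cancels in a difference between groups, apart from its part in background correction and scaling. Each group was grown from 1 line variant, so histamine production and any other difference between the variants cannot be told apart. In a tumour, fewer cells of a type and less RNA per cell cannot be told apart either.

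Histamine acts on cells through a family of G protein-coupled receptors and is known in melanoma for effects on growth, blood vessels and immune cells. Several programmes of gene control recur among the genes described here. ATF4 is a transcription factor made when amino acids are scarce or when kinases that phosphorylate the initiation factor eIF2 are active, and it turns on genes for amino acid synthesis and transport. SREBP factors turn on the enzymes of sterol synthesis. XBP1 drives genes for protein folding in the endoplasmic reticulum, and p53 drives genes that arrest or kill damaged cells.

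Of 26869 probes tested with limma, 1412 were called at a Benjamini-Hochberg adjusted p below 0.05, which is 5.26%. HDC-S tumours were higher at 762 of them (2.84% of all probes) and lower at 650 (2.42%). With 1 probe per named gene, 883 of 13215 genes were called (6.68%), 472 of them higher in HDC-S (3.57%) and 411 lower (3.11%). These shares are the background for the gene groups that follow. Between 58.9% and 65.8% of probes were well above background in the Cy5 channel of the 6 arrays. Most differences were small, with a median absolute log2 difference of 0.40 among called probes, and 26 called probes differed over 2-fold, 13 in each direction. At all 1412 called probes the 3 HDC-S and 3 HDC-A values did not overlap, as was the case at 24.4% of all probes tested. The number of calls fell when any 1 array was left out. It was 719, 1023 and 684 without HDC-A replicates 1, 2 and 3, and 648, 610 and 455 without HDC-S replicates 1, 2 and 3. Without HDC-M replicates 1, 2 and 3 it was 1019, 984 and 1389. Each of these fits also has fewer arrays to estimate the spread. A call in each of the 9 fits that omitted 1 array was made for 354 probes. With the replicate number as a block, 1010 of the 1412 probes stayed called. The number of calls also moved with the scaling. Of the 1412 probes, 370 were also called with the scanner software's own ratios, 462 from the Cy5 channel alone, 163 after scaling between arrays and 4 after median centring in place of loess. All 1412 kept their sign in these settings, except that 11 turned with Cy5 alone. The median standard error was 0.0801 after loess and 0.15 after median centring.

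**Figure D1:**
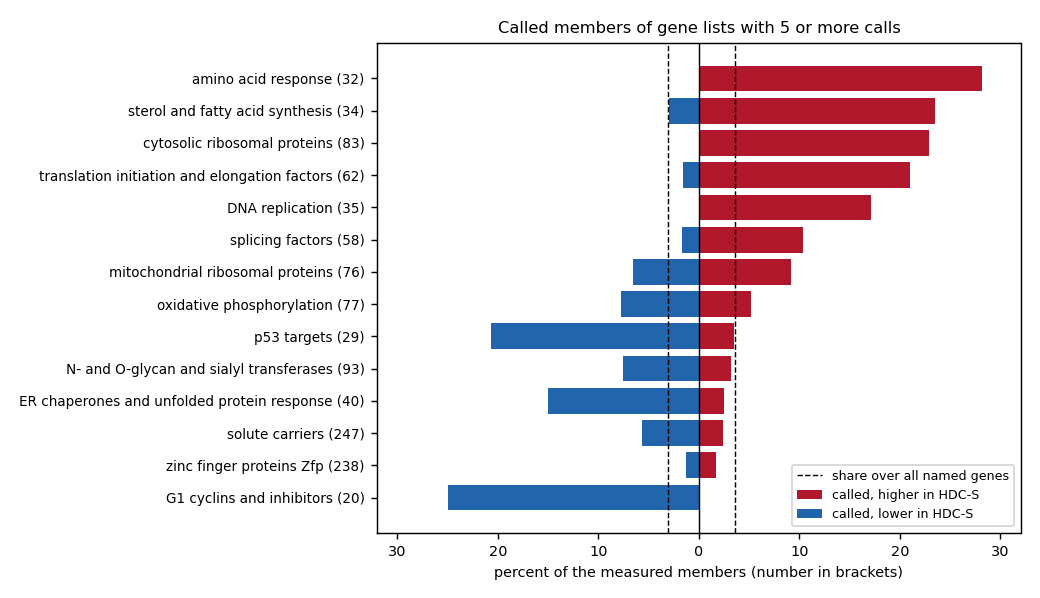
Share of the measured members of each gene list called higher (right) or lower (left) in HDC-S against HDC-A tumours, for the lists with 5 or more called members. Dashed lines mark the shares over all 13215 named genes, 3.57% higher and 3.11% lower. The bars of the amino acid response, sterol synthesis, ribosomal protein and translation factor lists lie mainly on the right, and those of the p53 target, G1 cyclin and endoplasmic reticulum lists mainly on the left.

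The largest difference was that of Lmo1, a LIM-domain protein that bridges transcription factors and acts as an oncogene in T cells and neuroblastoma. Its log2 ratios were 2.92, 2.68 and 2.40 in HDC-S tumours and 0.52, 0.31 and -0.11 in HDC-A tumours. The HDC-M tumours lay at -0.19, -0.54 and -0.37, below both groups. Lmo1 rose by 2.43 (SE 0.18, adjusted p = 0.00152 by limma) in HDC-S against HDC-A tumours, and was called in all 9 leave-one-out fits and in every scaling named above. Ssbp3 and Ssbp2, genes of single-stranded DNA-binding proteins that partner LIM-domain complexes, moved the other way on 1 probe each. Ssbp3 fell by 0.55 (SE 0.08, adjusted p = 0.00823), with HDC-S tumours at -1.21, -1.11 and -1.26 and HDC-A tumours at -0.60, -0.62 and -0.72. Ssbp2 fell by 0.37 (adjusted p = 0.0191) and was not called without HDC-A replicate 1 or 2 or HDC-S replicate 2 or 3. Second probes gave 0.06 for Ssbp3 and 0.01 for Ssbp2 and were not called. Ssbp3 was not called with Cy5 alone (adjusted p = 0.0842 by limma), after scaling (0.302) or after median centring. Ssbp2 was not called with the scanner software's ratios (0.0526), Cy5 alone (0.293), scaling (0.0621) or median centring. Lmo1, Ssbp3 and Ssbp2 were the 3 called genes of 16 measured in the list of LIM-domain-only factors and partners (18.8%, against 6.68% of all named genes).

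Other genes among the 15 highest encode proteins of several kinds. St3gal1, a sialyltransferase that caps O-linked sugars, rose by 1.13 (SE 0.16, adjusted p = 0.00804), from -1.38, -0.84 and -1.44 in HDC-A to -0.28, 0.17 and -0.16 in HDC-S tumours, with HDC-M at -0.76, -0.73 and -0.61. Gcat, a mitochondrial enzyme of threonine breakdown, rose by 1.02 (SE 0.10, adjusted p = 0.00234), and Lgals3, the sugar-binding protein galectin-3, by 1.03 (SE 0.18, adjusted p = 0.0141). Both groups were apart at each of these genes on every array. Gjc1, a gap junction connexin, rose by 0.99 and its second probe by 0.83. Fez1, a neuronal transport adaptor, rose by 0.98, and Sigirr, which dampens interleukin-1 and Toll-like receptor signalling, by 0.91. St3gal1, Gcat, Lgals3, Gjc1, Fez1 and Sigirr were called in all 9 leave-one-out fits. Of these, Lgals3 was not called with the scanner software's ratios (adjusted p = 0.0555), with Cy5 alone (0.0534) or after scaling (0.0921), and Fez1 was not called after scaling (0.298). None of these genes was called after median centring.

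Further high genes were less secure. Ndrg1, a stress and hypoxia-induced gene, was 1.18, 1.64 and 1.13 in HDC-S and -0.29, 0.72 and -0.28 in HDC-A tumours, and rose by 1.27 (SE 0.25, adjusted p = 0.0221). HDC-A replicate 2 stood well above its group there, and Ndrg1 was called in 4 of the 9 fits, not without HDC-A replicate 1 or 3 or HDC-S replicate 1, 2 or 3 (highest adjusted p = 0.0739). Vldlr, a lipoprotein receptor, rose by 0.96 with 2 usable HDC-A arrays, and was called in 5 of the 9 fits, not without HDC-A replicate 1 or 3 or HDC-S replicate 1 or 2 (highest adjusted p = 0.131). Cnn2, an actin-binding calponin, rose by 0.96 and was called in 4 of the 9 fits, not without HDC-A replicate 1 or 3 or HDC-S replicate 1, 2 or 3 (highest adjusted p = 0.0874). The intermediate filament gene Prph (1.12) and Nnmt (1.04), which methylates nicotinamide, lost their calls with the replicate number as a block, at adjusted p = 0.0603 and 0.0545. Prph was called in 2 of the 9 fits, those without HDC-M replicate 3 or HDC-S replicate 1. Nnmt was called in 3, those without HDC-A replicate 2 or HDC-M replicate 2 or 3.

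The genes furthest below HDC-A tumours were of several kinds. Afp, the fetal serum protein alpha-fetoprotein, was 0.87, 0.74 and 1.05 in HDC-A and -0.34, -0.37 and -0.21 in HDC-S tumours. It fell by 1.19 (SE 0.09, adjusted p = 0.00181) and was called in all 9 fits and every scaling named above, although its size ranged from -1.08 after scaling to -2.76 with the scanner software's ratios, with HDC-M (-0.27, -0.32 and -0.08) beside HDC-S. All 3 HDC-A arrays measured Afp well above background, and 1 of the 3 HDC-S arrays did. Tspan2, a tetraspanin, fell by 1.29 (SE 0.15, adjusted p = 0.00485), although its second probe was at -0.22 and not called. Cngb1, a subunit of cyclic nucleotide-gated channels, fell by 1.23 (SE 0.12, adjusted p = 0.00272), and Phyh, a peroxisomal enzyme of branched fatty acid breakdown, by 1.17. Emb, a partner of monocarboxylate transporters, fell by 0.98 and its second probe by 0.82. Afp, Tspan2, Cngb1, Phyh and Emb were called in all 9 leave-one-out fits, and Phyh was not called after scaling (adjusted p = 0.0552). Of these genes, Afp alone was also called after median centring. Armcx4, an armadillo-repeat gene, fell by 0.97 (SE 0.11, adjusted p = 0.00478) from 1.26, 1.06 and 1.19 to 0.31, 0.24 and 0.03, and Pgap4, which modifies glycolipid anchors, by 1.02. Both were called in all 9 fits. A second probe of Armcx4 was at -0.30 and not called (adjusted p = 0.0752), and Pgap4 was not called after scaling (adjusted p = 0.0703) or median centring (0.394). Erbb3, a receptor of neuregulins, fell by 1.05 (SE 0.16, adjusted p = 0.0106), but its dimmer second probe gave 0.03. Fndc3c1 fell by 1.39 and its second probe by 0.71. The first was called in 3 of the 9 fits, not without any of the 6 HDC-A and HDC-S arrays (highest adjusted p = 0.0817). Agt, the precursor of angiotensin, fell by 1.23 with 2 usable HDC-S arrays, and was not called without HDC-A replicate 1 or HDC-S replicate 1 or 2 (highest adjusted p = 0.126).

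**Figure D2:**
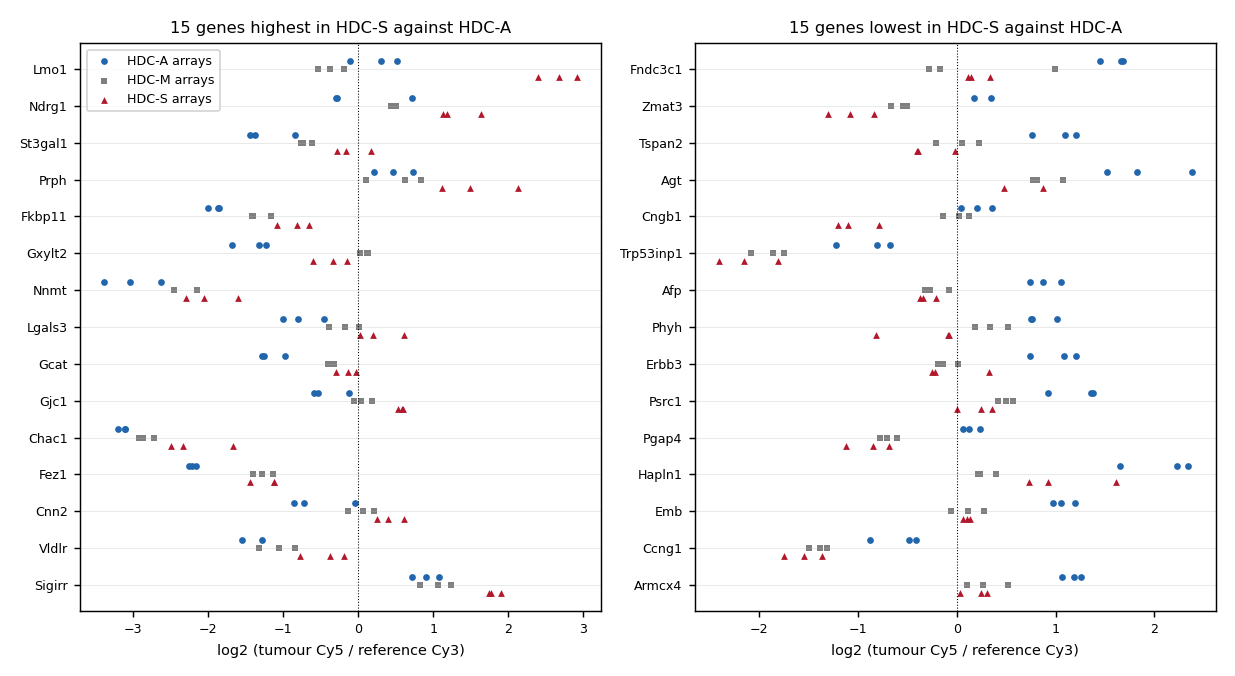
Log2 ratios on each of the 9 arrays for the 15 genes with the highest and the 15 with the lowest HDC-S against HDC-A differences among called genes, with HDC-A, HDC-M and HDC-S arrays drawn as circles, squares and triangles. HDC-M squares lie at the far side of HDC-A at Lmo1, near HDC-A at Prph, Sigirr and Cngb1, near HDC-S at Afp, Emb and Fez1, and past HDC-S at Gxylt2 and Hapln1.

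The amino acid response list holds genes that ATF4 or its partners are known to control. Promoters of 3 of its called members are shown because they bear a sequence that ATF4 complexes are known to bind. The sequence searched was TGATGNAA, on both strands, in the 250 bases before each RefSeq gene start (build GRCm38.p6). It was present at 3 of the 8 called members with a sequence and at 3 of the 19 other members with one. Its share was 3.91% of 27025 genes in the table, and 2.67% of the 10403 named genes measured here that have a sequence. The list was made of genes known to be under ATF4, so a share above that of all genes is no result of these tumours. The counts of called and other members rest on 3 genes each, and their difference was not tested. Matches are in capitals, and all sequences read 5′ to 3′ on the strand of the gene.
Asns (chr6:7693210-7693459, minus strand): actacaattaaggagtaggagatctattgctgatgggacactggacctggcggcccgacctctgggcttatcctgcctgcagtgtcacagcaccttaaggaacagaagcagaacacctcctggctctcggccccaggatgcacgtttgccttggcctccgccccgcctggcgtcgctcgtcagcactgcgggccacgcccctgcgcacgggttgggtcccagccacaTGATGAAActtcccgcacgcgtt
Chac1 (chr2:119350992-119351241, plus strand): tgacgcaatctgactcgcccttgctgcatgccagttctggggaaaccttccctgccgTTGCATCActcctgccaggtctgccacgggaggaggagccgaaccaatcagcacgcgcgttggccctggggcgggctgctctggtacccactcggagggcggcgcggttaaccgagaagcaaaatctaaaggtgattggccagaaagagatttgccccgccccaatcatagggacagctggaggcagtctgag
Pck2 (chr14:55540016-55540265, plus strand): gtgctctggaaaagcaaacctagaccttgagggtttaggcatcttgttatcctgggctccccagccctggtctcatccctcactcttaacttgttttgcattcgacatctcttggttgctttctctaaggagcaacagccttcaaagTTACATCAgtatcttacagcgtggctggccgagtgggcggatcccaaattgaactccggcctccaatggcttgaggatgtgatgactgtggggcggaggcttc
A match is a stretch of letters and not a measured binding site, and no match elsewhere says only that these letters are not in this window. The match of Asns lies on the strand of the gene, from 23 to 16 bases before its start, and those of Chac1 and Pck2 lie on the other strand.

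All 9 called genes of the 32 measured in that list were higher in HDC-S tumours, 28.1% of the list against 3.57% of all named genes. The median difference of the list was 0.28, against 0 over all probes, and 31 of the 32 genes had a value above 0. The factor itself, Atf4, was at -1.18, -0.86 and -1.10 in HDC-S and -1.74, -1.63 and -1.85 in HDC-A tumours, with HDC-M at -1.39, -1.59 and -1.37. It rose by 0.69 (SE 0.10, adjusted p = 0.00794). All 9 arrays were below the cultured reference, the HDC-A arrays furthest.

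Asns, which makes asparagine, rose by 0.85 (SE 0.07, adjusted p = 0.00234), from -2.39, -2.63 and -2.56 in HDC-A to -1.76, -1.62 and -1.67 in HDC-S tumours. The HDC-M tumours, at -2.05, -2.08 and -2.11, lay 53% of the way from the HDC-A mean to the HDC-S mean. Trib3, a pseudokinase that feeds back on ATF4, was at -4.15, -3.91 and -3.94 in HDC-A and -3.30, -2.90 and -3.29 in HDC-S tumours and rose by 0.84 (SE 0.12, adjusted p = 0.00765). Its second probe rose by 0.48 and lost its call with the replicate number as a block (adjusted p = 0.0508). Eif4ebp1, a repressor of cap-dependent translation, rose by 0.75 (SE 0.10, adjusted p = 0.00696) and by 0.49 on its second probe. Atf4, Asns, Trib3 and Eif4ebp1 were called in all 9 leave-one-out fits.

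Chac1, an enzyme that degrades glutathione, rose by 0.98 (SE 0.18, adjusted p = 0.0171), from -3.11, -3.11 and -3.21 in HDC-A to -2.34, -1.67 and -2.50 in HDC-S tumours, and was not called without HDC-A replicate 3 (adjusted p = 0.0581). Pck2, the mitochondrial enzyme that makes phosphoenolpyruvate, rose by 0.60 and was not called without HDC-S replicate 1 or 2 (highest adjusted p = 0.0569). Mthfd2, of the mitochondrial folate cycle, rose by 0.48 and was not called without HDC-A replicate 3 or HDC-S replicate 1, 2 or 3 (highest adjusted p = 0.0711). Sesn2, a leucine sensor (0.35), and Aldh18a1, of proline synthesis (0.26), lost their calls with the replicate number as a block (adjusted p = 0.0641 and 0.0779) and were called in 1 of the 9 fits each, the one without HDC-M replicate 3. The list held 5 calls without HDC-A replicate 3 or HDC-S replicate 1 or 2. Of the 9 genes, 5 were also called with the scanner software's ratios and 6 with Cy5 alone, and none after scaling or median centring, where none turned sign.

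The amino acid transporter Slc38a2, which carries glutamine and alanine and is known as an ATF4 target, is in the list of solute carriers. It rose by 0.75 (SE 0.09, adjusted p = 0.00516), from -1.73, -1.70 and -1.86 in HDC-A to -1.23, -0.93 and -0.89 in HDC-S tumours, and its second probe rose by 0.63. Several members known to respond to ATF4 did not pass. The serine synthesis genes Psat1 (0.33, adjusted p = 0.072), Psph (0.30) and Phgdh (0.29), the cystine transporter Slc7a11 (0.06) and the stress factor Ddit3 (0.02) were among them. Eif2ak3, the kinase PERK, which phosphorylates eIF2 upon stress of the endoplasmic reticulum, fell by 0.66 (SE 0.07, adjusted p = 0.00424). Its HDC-S values were 0.00, -0.07 and -0.09, and its HDC-A values 0.64, 0.73 and 0.45. Eif2ak4, the kinase GCN2, which senses uncharged tRNA, differed by 0.07 (adjusted p = 0.68).

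**Figure D3:**
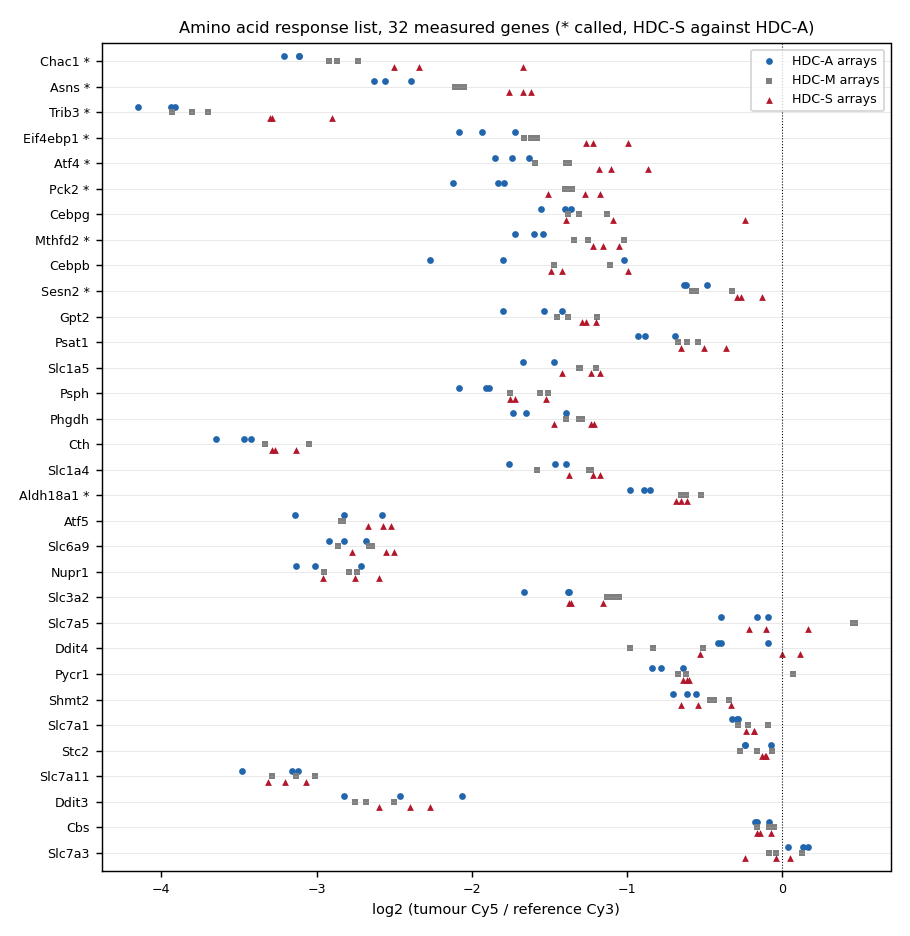
Log2 ratios on each of the 9 arrays for the 32 measured genes of the amino acid response list, ordered by the HDC-S against HDC-A difference, with called genes marked by an asterisk. At Atf4, Asns, Trib3 and Eif4ebp1 the HDC-S triangles lie to the right of the HDC-A circles on every array, with HDC-M squares 23% to 53% of the way.

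Cytosolic tRNA synthetases load tRNA with amino acids. Of 17 measured, 4 were called, all higher in HDC-S tumours (23.5%), 16 of 17 had a value above 0 and the median was 0.17. Tars rose by 0.45, Cars by 0.39, Qars by 0.38 and Yars by 0.28. The call of each depended on single arrays: none of the 17 was called without HDC-S replicate 2 or 3, 1 without HDC-A replicate 1 or 3, and 2 without HDC-S replicate 1. None was called with the scanner software's ratios, Cy5 alone, scaling or median centring.

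Proteins of the cytosolic ribosome rose in part. Of 83 measured genes 19 were called, all higher in HDC-S tumours (22.9%), with a median of 0.14 over the list, and 58 of 83 values were above 0. Rpl23 was at 0.09, 0.04 and 0.05 in HDC-S and -0.47, -0.45 and -0.50 in HDC-A tumours, and rose by 0.53 (SE 0.05, adjusted p = 0.00234), with 0.40 on its second probe. The HDC-M arrays (-0.43, -0.39 and -0.44) lay beside HDC-A. Rpl8 rose by 0.53. Rpl37 rose by 0.52 on 1 probe and was at 0.03 on another. Rpl17, with 2 usable HDC-A arrays, rose by 0.58, and Rpl29 by 0.57. Rpl22l1, a paralogue of Rpl22, rose by 0.63, while Rpl22 itself differed by -0.03 (adjusted p = 0.91). All 17 called genes of the large subunit and both called genes of the small one, Rpsa (0.40) and Rps24 (0.40), rose, but those 2 were not called without HDC-A replicate 3 or HDC-S replicate 1 or 3. Ribosomal protein genes have many near-identical processed copies, which a probe may also detect. HDC-M tumours were nearer HDC-A at 14 of the 19 genes, at a median of 32% of the way. The count was 12 without HDC-S replicate 1 or 3, and 12 of the 19 genes, Rpl23, Rpl8, Rpl37, Rpl17, Rpl29 and Rpl22l1 among them, were called in all 9 fits. Of the 19, 6 were also called with the scanner software's ratios, 1 with Cy5 alone, 2 after scaling and none after median centring.

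Initiation and elongation factors, which load and move the ribosome, showed 13 higher and 1 lower of 62 measured (22.6% called, median 0.14). Eif4ebp1 and the kinase Eif2ak3, given above, are among them. Subunits of the initiation factor eIF3, a scaffold on the small ribosomal subunit, made up 6 of the 13, at 0.36 to 0.51. Eif3d was at 0.24, 0.20 and 0.30 in HDC-S and -0.32, -0.27 and -0.20 in HDC-A tumours and rose by 0.51 (SE 0.06, adjusted p = 0.00404). HDC-M was 18% of the way. Eif3h (0.40), Eif3e (0.40) and Eif2s2, the beta subunit of eIF2 (0.45), were called in all 9 fits as well, although a second probe of Eif2s2 was at -0.02. Eif3l (0.47), Eif3m (0.36) and Eif3f (0.38) were called in 6, 8 and 3 of the 9. Eif3l was not called without HDC-A replicate 3 or HDC-S replicate 1 or 2, Eif3m without HDC-S replicate 3, and Eif3f without HDC-A replicate 1 or 2, HDC-M replicate 2 or HDC-S replicate 1, 2 or 3. Other eIF3 subunits, such as Eif3a (-0.03) and Eif3b (0.00), were not called. Eif4a3, a helicase of the exon junction complex, rose by 0.60 and was not called without HDC-S replicate 1 or 3. Eef2, which moves the ribosome along, rose by 0.36 and was not called without HDC-S replicate 1, 2 or 3, while Eef1a1 (0.28), Eef1b2 (0.29) and Eef1d (0.37) lost their calls with the replicate number as a block. The list held 7 calls without HDC-S replicate 1 or 3 and 8 without HDC-S replicate 2, and of its 14 calls, 4 were also made with the scanner software's ratios, 4 with Cy5 alone, 1 after scaling and none after median centring.

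Several enzymes of sterol synthesis rose. Of the 34 measured genes of sterol and fatty acid synthesis 8 rose and 1 fell (26.5% called, median 0.15), and 7 of the 8 belong to the steps from farnesyl diphosphate to cholesterol. Sqle, which makes squalene epoxide, was at 0.75, 0.62 and 0.79 in HDC-S and 0.08, -0.14 and 0.06 in HDC-A tumours, with HDC-M at 0.31, 0.43 and 0.31. It rose by 0.72 (SE 0.08, adjusted p = 0.00403). Msmo1, a sterol methyl oxidase, rose by 0.64 (SE 0.09, adjusted p = 0.00694), from -0.19, -0.42 and -0.22 to 0.27, 0.38 and 0.44. Both were called in all 9 fits.

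The remaining 6 were called in 1 to 3 of the 9 fits, and none without HDC-M replicate 1 or HDC-S replicate 3 (highest adjusted p 0.0801 to 0.151). They were the sterol reductase Tm7sf2 (0.71), squalene synthase Fdft1 (0.58), lanosterol synthase Lss (0.46), the desaturase Sc5d (0.44, adjusted p = 0.0576 with the replicate number as a block), Nsdhl (0.41) and the fatty acid elongase Elovl5 (0.32). Hmgcs1, an enzyme of an earlier step, was at 0.00 and was not called. Srebf1, which encodes a factor that activates lipid synthesis genes, fell by 0.35 (SE 0.06, adjusted p = 0.015) and was not called without HDC-A replicate 3 or HDC-S replicate 3. Srebf2, the other listed SREBP gene, was not measured. HDC-M was nearer HDC-S at 8 of the 9 called genes, at a median of 93% of the way. The list held 3 calls without HDC-A replicate 3, HDC-M replicate 1 or HDC-S replicate 3, 4 without HDC-A replicate 1 or 2 or HDC-S replicate 1, and 5 without HDC-M replicate 2 or HDC-S replicate 2. With the scanner software's ratios 2 of the 9 were called, with Cy5 alone 5, after scaling 2 and after median centring none.

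Among p53 targets, most called genes were lower in HDC-S tumours. Of 29 measured, 6 fell and 1 rose (24.1% called, against 3.11% lower and 3.57% higher over all named genes), and the median was -0.14. Zmat3, an RNA-binding growth suppressor, was at 0.35 and 0.17 on 2 usable HDC-A arrays and at -0.84, -1.31 and -1.08 in HDC-S tumours. It fell by 1.33 (SE 0.13, adjusted p = 0.00403). Trp53inp1, which promotes p53-dependent cell death, was at -0.68, -1.22 and -0.81 in HDC-A and -1.81, -2.41 and -2.16 in HDC-S tumours, and fell by 1.22 (SE 0.18, adjusted p = 0.00803) and by 0.68 on its second probe.

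Cdkn1a, the inhibitor p21 of cyclin-dependent kinases, was at 0.39, 0.20 and 0.65 in HDC-A and -0.38, -0.48 and -0.52 in HDC-S tumours. It fell by 0.87 (SE 0.10, adjusted p = 0.00485). The HDC-M tumours, at -0.48, -0.59 and -0.61, lay with HDC-S. Psrc1, a microtubule regulator, fell by 1.02 and on its other probes by 0.84 and 0.70, Ccng1, cyclin G1, by 0.97 and on its second probe by 0.80, and Phlda3, an inhibitor of AKT, by 0.63. All 6 genes that fell were called in each of the 9 fits, and 6 or 7 members were called whichever array was left out.

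At these 6 genes the HDC-M mean was 63% to 112% of the way from HDC-A to HDC-S, so that the HDC-A arrays stood apart from the other 6. All 6 were also called with the scanner software's ratios. With Cy5 alone 5 of the 6 were called, the exception being Phlda3 (adjusted p = 0.0856), and none was called after scaling or median centring, where none turned sign. Sesn2 was the member that rose, and is also a target of ATF4. Other members did not pass, among them Mdm2, the ligase that degrades p53 (-0.32, adjusted p = 0.0546), and the cell death genes Bbc3 (-0.23), Pmaip1 (-0.13), Fas (-0.19) and Bax (-0.03). Perp had the lowest value of the list, -1.39, and did not pass (adjusted p = 0.34). Perp is also made by keratinocytes and is 1 of their markers listed at the end, and the part of these cells was not tested. Its HDC-A values were 2.81, 3.31 and 1.46 and its HDC-S values -0.08, 1.17 and 2.31.

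**Figure D4:**
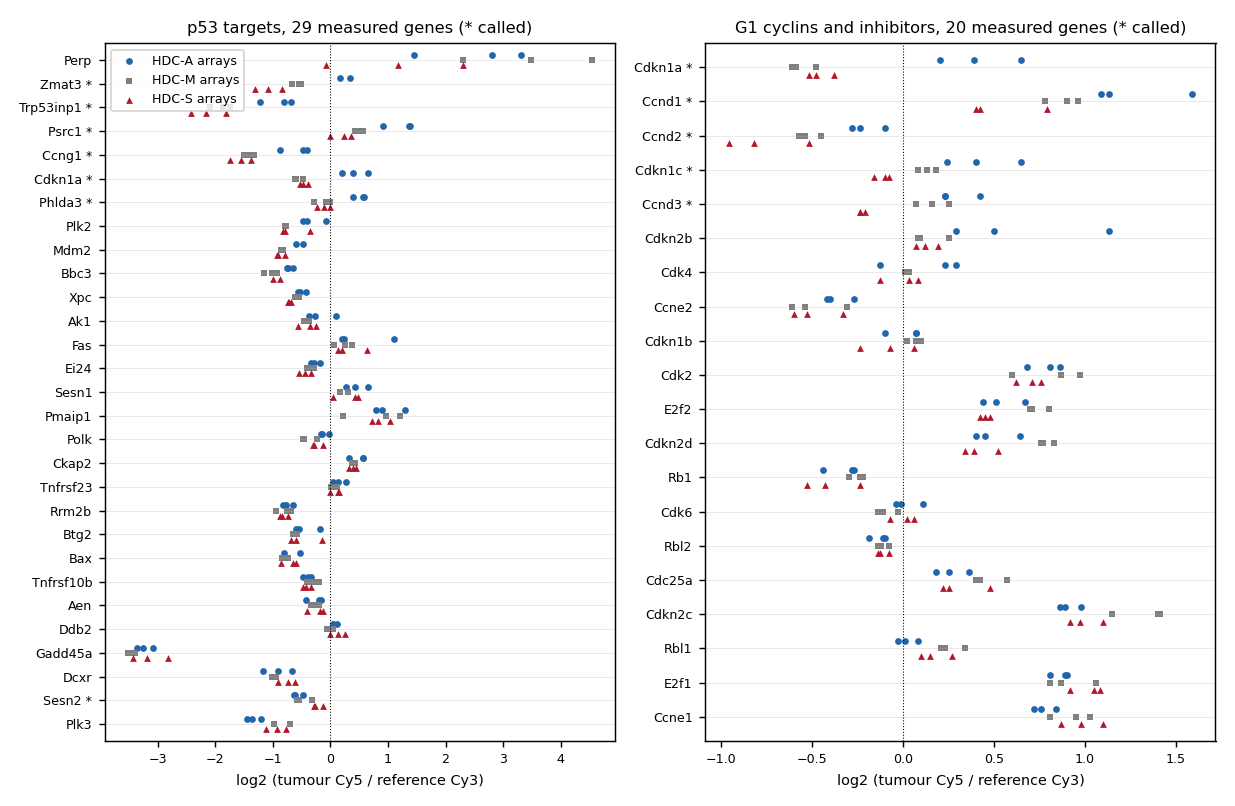
Log2 ratios on each of the 9 arrays for the 29 measured p53 targets and the 20 measured G1 cyclins and inhibitors, ordered by the HDC-S against HDC-A difference, with called genes marked by an asterisk. At Zmat3, Trp53inp1, Psrc1, Ccng1, Cdkn1a and Phlda3 the HDC-A circles lie to the right of every HDC-M and HDC-S array.

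The called genes of the G1 phase were all lower in HDC-S tumours, drivers and brakes alike. Of 20 measured, 5 fell and none rose (25% called, median -0.09). Ccnd3, a D-type cyclin that starts the cell cycle with CDK4 or CDK6, was at 0.23, 0.23 and 0.42 in HDC-A and -0.21, -0.24 and -0.24 in HDC-S tumours. It fell by 0.52 (SE 0.07, adjusted p = 0.00765) and was called in all 9 fits. The other D-type cyclins, Ccnd1 (-0.73, adjusted p = 0.0236) and Ccnd2 (-0.56, adjusted p = 0.0193), were lower too and were not called without HDC-A replicate 3 or HDC-S replicate 2 or 3, where the highest adjusted p was 0.0908 and 0.0686. The remaining called members were the inhibitors Cdkn1a, given above, and Cdkn1c (-0.54), which encodes p57 and was not called without HDC-S replicate 1 or 3 (highest adjusted p = 0.0547). The list held 2 calls without HDC-S replicate 3, and 3 without HDC-A replicate 3 or HDC-S replicate 2. With the scanner software's ratios 3 of the 5 were called, with Cy5 alone 2, after scaling 1 (Ccnd3) and after median centring none.

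The called genes of DNA replication all rose, and few genes of mitosis were called. Of 35 measured DNA replication genes 6 rose and none fell (17.1%, median 0.12). Cdt1, which licenses replication origins, was at 1.09, 1.03 and 1.17 in HDC-S and 0.59, 0.28 and 0.44 in HDC-A tumours, with HDC-M at 0.76, 0.73 and 0.72, and rose by 0.66 (SE 0.08, adjusted p = 0.0049). It was the only one of the 6 called in all 9 fits. Chaf1b (0.44), the helicase subunit Mcm5 (0.40), Cdc6 (0.37, adjusted p = 0.0556 with the replicate number as a block, and -0.15 on a second probe), Pold1 (0.32, and 0.19 on a second probe) and the primase subunit Prim2 (0.31) were called in 1 to 3 of them. The list held 1 call without HDC-A replicate 3 or HDC-S replicate 1, 2 or 3, 2 without HDC-A replicate 2 or HDC-M replicate 2, and 3 without HDC-M replicate 1. With the scanner software's ratios 1 of the 6 was called, with Cy5 alone 2, and after scaling or median centring none, Cdt1 included.

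Of 36 measured genes of mitosis, 3 fell and none rose (8.33% against 6.68% of all named genes, median 0.04). This is near the share over all named genes, and 20 of the 36 had a value above 0. Foxm1, the factor that drives mitotic genes, was at 0.52, 0.65 and 0.73 in HDC-S and 1.24, 0.94 and 1.09 in HDC-A tumours, with HDC-M (1.08, 1.04 and 1.05) beside HDC-A. It fell by 0.46 (SE 0.08, adjusted p = 0.0166) and was not called without HDC-A replicate 3 or HDC-S replicate 1 or 2 (highest adjusted p = 0.058). Cks2, a subunit of cyclin-dependent kinases, fell by 0.38 and was not called without HDC-S replicate 3. Cyclin B1, Ccnb1, fell by 0.43, with adjusted p = 0.0568 under the replicate block, and was called in the fit without HDC-A replicate 2 alone. Many mitotic genes did not pass, such as Bub1 (0.35), Aurka (0.21), Plk1 (0.07) and Birc5 (-0.10). The list held 1 call without HDC-A replicate 3 or HDC-S replicate 1, 2 or 3. With Cy5 alone 1 of the 3 was called, and none with the scanner software's ratios, after scaling or after median centring.

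Genes of protein folding and the unfolded protein response in the endoplasmic reticulum were mostly lower among the called members. Of 40 measured, 6 fell and 1 rose (17.5%, median -0.11). Canx, the lectin chaperone calnexin, was at 0.36, 0.42 and 0.36 in HDC-A, 0.06, 0.15 and 0.13 in HDC-M and -0.18, -0.20 and -0.26 in HDC-S tumours. It fell by 0.59 (SE 0.05, adjusted p = 0.00234), and its other probes by 0.47 and 0.58. Ssr1, of the translocon, fell by 0.59, although its second probe was at -0.20 and not called. Both were called in all 9 fits and after scaling.

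Xbp1, the transcription factor of the folding response, was at -0.63, -0.55 and -0.68 in HDC-A and -0.94, -0.92 and -0.88 in HDC-S tumours and fell by 0.29 (SE 0.06, adjusted p = 0.0221). HDC-M (-0.66, -0.63 and -0.58) lay with HDC-A. Xbp1 was called in 4 of the 9 fits, not without HDC-A replicate 1 or 2 or HDC-S replicate 1, 2 or 3. The ubiquitin ligase Syvn1 (-0.44), the disulphide isomerase Txndc5 (-0.44) and Edem1 (-0.40), which hands misfolded glycoproteins to degradation, were lower and were called in 7, 5 and 3 of the 9 fits. Syvn1 was not called without HDC-S replicate 1 or 3, Txndc5 without HDC-A replicate 1 or 2 or HDC-S replicate 2 or 3, and Edem1 without any of the 6 HDC-A and HDC-S arrays. Other probes of these genes were not called, at 0.05 for Syvn1, -0.20 for Txndc5 and -0.31 and -0.06 for Edem1. The best known chaperone of the list, Hspa5 (BiP), differed by 0.09 (adjusted p = 0.74).

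Fkbp11, a prolyl isomerase of the same compartment, moved the other way and was among the 15 highest genes of the comparison. It was at -1.87, -1.85 and -2.00 in HDC-A, -1.41, -1.40 and -1.16 in HDC-M and -0.82, -1.08 and -0.66 in HDC-S tumours, a rise of 1.05 (SE 0.11, adjusted p = 0.00378). Its second probe gave 0.45 and was not called (adjusted p = 0.0795). The first was called in all 9 fits but not after scaling (adjusted p = 0.0651). The list held 3 calls without HDC-S replicate 3, and 4 without HDC-A replicate 1 or 2 or HDC-S replicate 1 or 2, with 3 of the 7 also called by the scanner software's ratios, 3 by Cy5 alone, 2 after scaling and none after median centring.

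Mitochondrial genes moved in both directions. Of 77 genes of oxidative phosphorylation 4 rose and 6 fell (13%, median -0.07). Atp5g2, of the ATP synthase ring, rose by 0.43 (SE 0.05, adjusted p = 0.00527), and Ndufb9, of complex I, by 0.37. Uqcrb, of complex III, fell by 0.44 (SE 0.07, adjusted p = 0.0115), and all 3 were called in the 9 fits. Of 76 mitochondrial ribosomal proteins 7 rose and 5 fell (15.8%, median 0.03), with Mrpl38 (0.48) and Mrpl45 (0.43) called in all 9 fits and a second probe of Mrpl45 at 0.19 and not called. None of the calls in either list was made with the scanner software's ratios, 2 in each were with Cy5 alone, 1 in each after scaling and none after median centring. The counts fell to 6 and 7 with the replicate number as a block. Without single arrays the first list held 5 calls (HDC-A replicate 1 or 3, HDC-S replicate 2 or 3) or 6 (HDC-S replicate 1), and the second 2 (HDC-S replicate 3), 4 (HDC-A replicate 3, HDC-S replicate 1 or 2), 5 (HDC-A replicate 1, HDC-M replicate 2), 6 (HDC-M replicate 1) or 7 (HDC-A replicate 2). Aldoc (0.65), Pfkl (0.42) and Pkm (0.27) were the 3 called of 18 in the glycolysis list (16.7%, against 6.68% of all named genes). All 3 lost their calls under the replicate block (adjusted p = 0.0658, 0.0648 and 0.0682).

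Enzymes that build and trim the sugars of glycoproteins and glycolipids changed in both directions too. Of 93 measured, 3 rose and 7 fell (10.8%, median -0.01). Beside St3gal1, the genes that rose were Gxylt2, which adds xylose to Notch-type repeats (1.05, SE 0.14, adjusted p = 0.00645), and St3gal6 (0.45). St3gal5, which makes the ganglioside GM3, fell by 0.64 (SE 0.09, adjusted p = 0.00842), from 0.66, 0.45 and 0.67 in HDC-A to -0.05, -0.05 and -0.04 in HDC-S tumours. These 4 were called in all 9 fits, and St3gal6 was not called after scaling (adjusted p = 0.0685). Man1a (-0.48), Mgat1 (-0.43), Gcnt2 (-0.41), Mgat4b (-0.33, adjusted p = 0.0682 with the replicate block) and Man2a1 (-0.31), which process N-glycans or branch sugar chains, were lower and were called in 1 to 7 of the 9 fits, none of them without HDC-S replicate 3. A second probe of Mgat1 was at 0.07 and was not called. The list held 4 calls without HDC-S replicate 3, 5 without HDC-A replicate 1, HDC-M replicate 1 or HDC-S replicate 1 or 2, and 6 without HDC-A replicate 2 or 3 or HDC-M replicate 2.

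Enzymes of glutathione and fat metabolism changed singly. Of 41 measured glutathione and antioxidant genes 2 rose and 1 fell (7.32%, median -0.04). Gsta4, which conjugates products of lipid oxidation, was at 0.83, 1.14 and 1.08 in HDC-S and 0.43, 0.14 and 0.25 in HDC-A tumours, with HDC-M (1.07, 1.13 and 0.76) beside HDC-S. It rose by 0.74 (SE 0.12, adjusted p = 0.0117) and was not called without HDC-S replicate 3. Gstk1, a mitochondrial and peroxisomal transferase, rose by 0.65 and was called in all 9 fits, and the microsomal Mgst1 fell by 0.89 and by 0.70 on its second probe and was not called without HDC-A replicate 3 or HDC-S replicate 1 or 3. After scaling, Gstk1 and Mgst1 were not called (adjusted p = 0.447 and 0.163). Of 33 genes of fatty acid oxidation and ketone bodies 2 rose and 1 fell (9.09%, median -0.04). Acot1, a cytosolic thioesterase, was at 1.06, 0.73 and 0.99 in HDC-S and 0.11, -0.16 and 0.27 in HDC-A tumours, rose by 0.85 (SE 0.12, adjusted p = 0.0084) and was called in all 9 fits, with HDC-M beside HDC-A.

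Transporters of the solute carrier families were called about as often as other genes, 20 of 247 (8.1% against 6.68%), with 6 higher, 14 lower and a median of -0.01. Beside Slc38a2, the 5 carriers that rose included 4 of the mitochondrial family: Slc25a1, which exports citrate (0.41), Slc25a33 (0.36), Slc25a25 (0.36) and Slc25a17 (0.34), a peroxisomal member. Each of these 4 lost its call without HDC-S replicate 1 and at least 1 other array. Slc19a2, a thiamine transporter, was at -0.55, -0.77 and -0.58 in HDC-A and -1.23, -1.24 and -1.31 in HDC-S tumours, and fell by 0.63 (SE 0.07, adjusted p = 0.00403). Slc12a7, which moves potassium and chloride, fell by 0.63 (SE 0.09, adjusted p = 0.00774), and both were called in all 9 fits. Neither was called after scaling (adjusted p = 0.302 for Slc19a2 and 0.132 for Slc12a7). HDC-M was nearer HDC-S at 16 of the 20. The list held 9 calls without HDC-A replicate 1, 10 without HDC-A replicate 3, 8 without HDC-S replicate 1 or 3 and 11 without HDC-S replicate 2.

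Receptors, matrix and cell shape genes were called singly more often than as groups. Igf2r, which clears insulin-like growth factor 2, fell by 0.95 (SE 0.07, adjusted p = 0.00152), from 1.30, 1.36 and 1.15 in HDC-A and 1.07, 1.20 and 1.20 in HDC-M to 0.34, 0.33 and 0.28 in HDC-S tumours. Fbln5, an elastic fibre protein, fell by 0.96 (SE 0.09, adjusted p = 0.00234), from 1.45, 1.44 and 1.60 to 0.63, 0.56 and 0.42, with HDC-M at 1.18, 1.44 and 1.44. Its dimmer second probe was at -0.08. At both genes HDC-S arrays stood apart, with HDC-M 12% and 15% of the way. The paper on the study picked out both Igf2r and Fbln5, and the values here cannot count as independent support for their direction.

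Pfn2, an actin-binding profilin, had the smallest adjusted p of all probes. It was at 0.04, 0.16 and 0.18 in HDC-A, -0.40, -0.50 and -0.47 in HDC-M and -0.83, -0.78 and -0.85 in HDC-S tumours, and fell by 0.95 (SE 0.06, adjusted p = 0.00128). Its second probe fell by 0.56. The actin-binding tropomyosin Tpm1 rose by 0.75 and was not called without HDC-S replicate 3. Epha3, an ephrin receptor, rose by 0.85 (SE 0.14, adjusted p = 0.0127), and the ligand gene Efna5 fell by 0.49 (SE 0.06, adjusted p = 0.00515). Itga4, the alpha chain of a lymphocyte-type integrin, fell by 0.64 (SE 0.09, adjusted p = 0.008). Igf2r, Fbln5, Pfn2, Epha3, Efna5 and Itga4 were called in all 9 fits. After scaling, Igf2r (adjusted p = 0.176 by limma), Fbln5 (0.278), Epha3 (0.128) and Efna5 (0.128) were not called. With Cy5 alone, Epha3 (0.0577) and Efna5 (0.0702) were not called, and after median centring none of these genes was. Second probes of Tpm1 (0.27), Epha3 (0.38), Efna5 (-0.10) and Itga4 (-0.10) were not called. Of 31 collagen chains, 22 integrins, 51 metalloproteinases and inhibitors and 38 cadherins, 0, 1, 3 and 0 were called. These are 0%, 4.55%, 5.88% and 0%, none above the 6.68% of all named genes.

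Genes of the melanocyte lists were called singly, and among those called Syngr1 alone rose. Of 30 genes of pigment synthesis and melanosomes 1 rose and 2 fell (10%, median 0.01). The one that rose was Syngr1 (0.45, adjusted p = 0.0559 with the replicate number as a block). Of 23 melanocyte regulators 2 fell, Erbb3 and Mcam (8.7%, median -0.02). The groups did not overlap at 15 of the 30 and 7 of the 23, against 24.4% of all probes. Tyr, tyrosinase, was at 0.31, 0.23 and 0.25 in HDC-A and -0.17, -0.18 and -0.30 in HDC-S tumours, and fell by 0.48 (SE 0.08, adjusted p = 0.0121). It was not called without HDC-S replicate 3 (adjusted p = 0.0522). Oca2, a melanosome transporter, fell by 0.62 and was not called without HDC-A replicate 1 or 3 or HDC-S replicate 3, and its HDC-M arrays (0.39, 0.69 and 0.37) lay above both groups. Mcam, a melanoma adhesion molecule, fell by 0.72, was not called without HDC-S replicate 1, 2 or 3, and had a second probe at -0.13. The master regulator Mitf, at 1.81, 1.97 and 1.85 in HDC-A and 1.78, 2.03 and 1.92 in HDC-S tumours, differed by 0.04 (adjusted p = 0.87). Markers of the melanocyte lineage were thus measured in all groups.

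Of the histamine system 6 of 12 listed genes were measured and none was called. Hdc differed by 0.22 (SE 0.14, adjusted p = 0.463), with 0.44, 0.33 and 0.61 in HDC-S and 0.15, 0.15 and 0.42 in HDC-A tumours. The groups overlapped. With the scanner software's ratios Hdc differed by 0.59 and was not called either (adjusted p = 0.452 by limma). Where the probe lies relative to the altered part of the gene is not given in the sources used here, so these values do not check the labels. The receptor genes Hrh2 (-0.10, well above background on 1 of 3 arrays of each group) and Hrh3 (-0.07) were not called either.

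The HDC-M mean fell within the HDC-A and HDC-S means at 1160 of the 1412 called probes (82.2%), beyond HDC-A at 114 and beyond HDC-S at 138. The probes were chosen for a gap between those means, and a wide gap holds another mean more often, so this share is a description only. The position of HDC-M had a median of 55% of the way from HDC-A to HDC-S, with quartiles of 30% and 81%. It was 45% for probes higher in HDC-S and 65% for probes lower in HDC-S. The HDC-M position was tested as a departure from the midpoint. The size of this contrast is independent of the difference that chose the probes, but both tests share the same estimate of spread. Called probes tend to have a small spread, so their count of departures cannot be compared with the share over all probes. Over all probes 48 of 26867 departed (0.179%), and 11 of the 1412 called probes did, 8 of them toward HDC-S and 3 toward HDC-A. The counts of departures, like the calls, moved with single arrays: 3, 2 and 38 probes departed without HDC-M replicates 1, 2 and 3, 29 and 20 without HDC-A replicates 2 and 3, 21 without HDC-S replicate 1, 16 without replicate 2 and 22 without replicate 3.

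Lmo1 was the strongest departure, with HDC-M below the midpoint by a log2 difference of -1.82 (SE 0.15, adjusted p = 0.00538). Pdzrn3, a ubiquitin ligase of muscle and synapse, was at -0.26, -0.37 and -0.56 in HDC-A, -1.01, -1.09 and -0.97 in HDC-M and 0.16, -0.12 and 0.26 in HDC-S tumours, a departure of -0.87 (SE 0.09, adjusted p = 0.0119). Tg, thyroglobulin, departed upward by 0.48 (SE 0.05, adjusted p = 0.0119), and Mef2c, a muscle and neural crest transcription factor, downward by -0.51 (SE 0.06, adjusted p = 0.0212). At Oca2 the HDC-M arrays were above the midpoint by 0.71 (SE 0.10, adjusted p = 0.036). At these genes HDC-M was not the middle of the series.

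**Figure D5:**
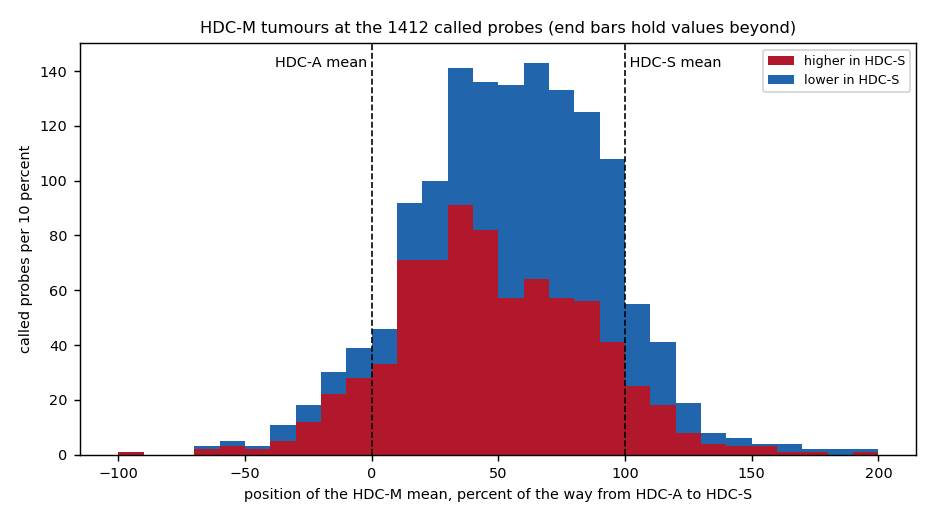
Position of the HDC-M mean at the 1412 called probes, as a percentage of the way from the HDC-A mean (0) to the HDC-S mean (100), in steps of 10, with probes higher in HDC-S and lower in HDC-S stacked and the end bars holding all values beyond. Probes higher in HDC-S centre at 45% and probes lower in HDC-S at 65%.

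Genes of other cell types varied between the tumour pools. Skeletal muscle markers (20 of 22 listed measured) averaged 1.46 to 2.74 on HDC-A and 0.61 to 2.04 on HDC-S arrays, with 19 of 20 lower in HDC-S, a median of -0.82 and none called. Keratinocyte markers (13 of 18 measured) averaged 1.05 to 2.21 on HDC-A, 1.48 to 2.85 on HDC-M and 0.07 to 1.27 on HDC-S arrays, with 12 of 13 lower in HDC-S, a median of -0.97 and none called. Interferon response genes averaged 0.46 to 2.01 on HDC-A and 1.78 to 1.89 on HDC-S arrays, with 39 of 43 higher in HDC-S, a median of 0.50 and none called. HDC-A replicate 1 was lowest at 0.46, and HDC-A replicate 3 was above every HDC-S array. Macrophage markers averaged 1.63 to 2.50 and 1.90 to 2.31, and endothelial markers 1.05 to 1.66 and 1.05 to 1.16, and the groups overlapped. The part of these cells in the differences above was not tested.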

How the data were processed

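Each of the 9 arrays was a 2-colour Agilent oligonucleotide array, with the tumour pool in Cy5 and the reference of cultured HDC-M cells in Cy3, and dyes were not swapped. The deposited scanner files hold mean spot intensity and local background intensity per channel, marks for spots well above background, saturated or outlying, and the log10 ratio that the scanner software computed, per the file headers. The authors' value table holds the same log10 ratios, and the log2 scale here was computed from the deposited intensities. Data processing beyond the headers is not given in the sources used here.

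Backgrounds were corrected by normexp (offset 50) and ratios normalized by loess within arrays with limma 3.58.1 in R 4.3.3. Control and outlying spots had weight 0 in loess, and outlying spots were left out. Of 41174 distinct probes, 26871 well above background in Cy5 on at least 3 arrays were kept, and spots of a probe were averaged. limma's moderated test was fitted to all 9 arrays with 1 mean per group. It gave HDC-S minus HDC-A and HDC-M minus the midpoint of both, with Benjamini-Hochberg adjustment over all probes and a threshold of 0.05. A gene was counted by its brightest probe with a value, and second probes are given for some genes where they differ. Probes were named through RefSeq from accessions in the files (23765 probes have a symbol). Promoters are from RefSeq, build GRCm38.p6.

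The members and the 94 gene lists were chosen with earlier results of these data known. Genes were named by rule: the histamine system, the 15 highest and 15 lowest called genes, up to 6 called members of each list in each direction, up to 2 of a list with none, and the called probes with the 5 clearest departures from the midpoint. Other list members were named after their values were seen, and some results are not reported here. Deviations from the group means correlated at 0.11, 0.55 and 0.13 between HDC-A and HDC-S arrays of the same replicate number, which was taken as pairing. The replicate numbers follow the scan days, with replicates 1 and 2 on the first and replicate 3 on the second. Each array is a separate pool, so p-values measure the spread between pools, and 3 arrays per group limit the precision. Alternatives were other background corrections and scalings, the filter, blocks, and leaving out each array. The script was tested on simulated data.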

Additional observations from a re-analysis of the deposited data

How the results depend on the processing

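The 1412 calls between HDC-S and HDC-A became 392 from the deposited log10 ratios (in the scanner files and the value table alike), 4 after median centring, 165 after scaling between arrays, 632 with the Cy5 channel alone, 740 when HDC-S and HDC-A arrays were fitted without HDC-M and 9 with the 6 arrays scanned first. The replicate block gave 1126 and the scan day block 1156. Without 1 array it ranged from 455 to 1389. The 48 departures of HDC-M from the midpoint became 100 without background correction, 3 from the deposited log10 ratios, 2 after median centring, 19 with Cy5 alone, 253 with array weights and 6 with the arrays scanned first, and ranged from 2 to 43 without 1 array. The cause of these changes was not tested, beyond the fewer arrays of some. The second scan day alone leaves no spread within groups and was not run. Over 276 named probes and 25 settings, 1908 values kept their direction and lost the call, 33 gained one, and 1 reversed: Adam3, at -0.26, was at 0.17 with Cy5 alone. Adam3 also lost its call with the replicate number as a block (adjusted p = 0.0704 by limma). Among the genes named by rule and given in the text, sizes from the deposited log10 ratios were larger at Hdc (0.59), Adam3 (-0.54), Afp (-2.76), Cdkn1c (-1.34), Armcx4 (-1.78), Vldlr (1.78), Tyr (-0.85), Tspan2 (-1.95), Pgap4 (-1.55), Gsta4 (1.14), Gcnt2 (-0.70), Cdc6 (0.58) and Tg (0.58), among others. With Cy5 alone sizes were smaller at Ahsa1 (0.01), Slc25a17 (0.09), Eif3l (0.14), Rpl37 (0.26), Tars (0.23), Qars (0.23) and Ssbp2 (-0.22), and larger at Srebf1 (-0.62), Txndc5 (-0.71) and Pkm (0.41), among others. Where the replicate block ended the call of a gene in the text, this stands beside it. With 3 arrays per group, differences near the threshold could not be resolved, and dim probes such as Afp in HDC-S tumours are limited by background.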

Other observations

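Further gene groups held few calls each. Of 29 heat shock chaperones 3 rose and none fell (10.3%, median 0.25), all known to assist folding: the mitochondrial Hspa9 (0.37) and Hspe1 (0.37) and the HSP90 activator Ahsa1 (0.27). Ahsa1 lost its call with the replicate number as a block (adjusted p = 0.0566 by limma) and was at 0.01 with the Cy5 channel alone. They were called in 5, 4 and 2 of the 9 leave-one-out fits, none of them without HDC-A replicate 3 or HDC-S replicate 2 or 3. Of 14 S100 genes 2 fell and none rose (14.3%, median -0.25), S100b by 0.71 and S100a11 by 0.49. Of 11 annexins 2 fell and none rose (18.2%), Anxa1 by 0.75 and Anxa5 by 0.58, while the median of the list was 0.02 and 6 of the 11 had a value above 0. No S100 gene was called without HDC-A replicate 3, and no annexin without HDC-S replicate 3. The S100 list held 1 call without HDC-S replicate 1, 2 or 3, and the annexin list 1 without HDC-A replicate 1 or 3 or HDC-S replicate 1. S100b was at 0.92, 1.02 and 1.12 in HDC-A, 0.10, 0.30 and 0.38 in HDC-M and 0.56, 0.30 and 0.07 in HDC-S tumours, and was not called without HDC-A replicate 3.

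Dusp6, a phosphatase that limits ERK signalling and is induced by it, was at 1.39, 1.40 and 1.57 in HDC-A and 0.90, 0.78 and 0.76 in HDC-S tumours. It fell by 0.64 (SE 0.08, adjusted p = 0.00485 by limma) and was called in all 9 fits, with HDC-M (0.99, 0.84 and 0.83) beside HDC-S. After scaling between arrays Dusp6 was not called (adjusted p = 0.156). Of 58 splicing factors 6 rose and 1 fell (12.1%), with Hnrnpd at 0.48 (adjusted p = 0.00914). The 7 calls became 4 with the replicate number as a block, 2 without HDC-S replicate 3, 3 without HDC-A replicate 1 or 2 or HDC-S replicate 1 or 2, and 4 without HDC-A replicate 3 or HDC-M replicate 2. Hnrnpa2b1 was at -0.47 (adjusted p = 0.00994) on 1 probe and at 0.24 on another, which was not called. Of 238 zinc finger genes named Zfp 4 rose and 3 fell (2.94%), below the share over all named genes. Zfp536 (0.72) and Zfp618 (-0.80) were called in all 9 fits.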
